A study of Mus musculus with 4 samples.

Results

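Whether light chain transcripts differ between subclones of the mouse hybridoma 36-65 was read from 28 probe sets, of 45037 tested, in subclones that switch immunoglobulin heavy chain class at low or at high frequency. A probe set is a group of short oligonucleotides that report 1 intensity for a transcript. Every probe set was taken whose platform annotation lists a variable (V), joining (J) or constant (C) gene of the kappa chain (Igkv, Igkj, Igkc) or of the lambda chain (Iglv, Iglj, Iglc), whether as 1 symbol (19 probe sets) or among several (9 probe sets). This gave 24 kappa and 4 lambda probe sets, chosen by name and not by level. The surrogate light chain gene Igll1 was left out, as were 4 probe sets annotated only to the kappa locus as a whole (Igk), whose differences between classes lay between 0.02 and 0.24 on the log2 scale, none past the threshold used below.

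A hybridoma is a fusion of a B cell and a myeloma line that grows without limit and secretes antibody. The low switching class holds L25 (replicate 1) and L27 (replicate 2), and the high switching class, the one whose switching the labels call spontaneous, holds H23 (replicate 1) and H27 (replicate 2). All 4 grew in the same medium with 10% fetal calf serum, and total RNA of each was hybridized to 1 expression array. Each subclone is 1 clone, and nothing in the labels says that subclones of a class arose separately, so every SD below is the spread between 2 subclones and may include technical spread. The SEs and intervals are limma's, which also draw on the spread of all probe sets. The deposited intensities were normalized between arrays by the authors and are given here as log2 values, on which a difference of 1 is a 2-fold change. The median probe set lay between 5.25 and 5.30 on the 4 arrays, and readings near or below it may not follow transcript amount.

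An antibody molecule pairs heavy chains with light chains of kappa or of lambda type. Each light chain gene is assembled in the developing B cell by joining a V segment to a J segment upstream of a constant region, usually at the kappa locus first and at the lambda locus when kappa rearrangement has not given a usable chain. In the mouse most antibodies carry kappa, the kappa locus (chromosome 6) has a large array of V genes and the lambda locus (chromosome 16) very few. Class switching exchanges the heavy chain constant region and leaves the light chain genes as they are.

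Cells of the 4 arrays carried plasma cell transcripts. All 8 plasma cell markers lay above the median probe set on all 4 arrays, with mean levels of 6.87 to 14.44 (median 12.58). Among them were Jchain (the joining chain of secreted polymeric antibody) and Irf4 (a transcription factor of plasma cells). Also above it on all 4 arrays lay 2 of 6 measured B cell markers (Ms4a1 and Cd79b) and 5 of 5 T cell markers (mean levels 5.61 to 7.38). So did 3 of 5 myeloid, 1 of 4 fibroblast and 0 of 2 erythroid markers, so this criterion alone does not set plasma cells apart. Of these lists, limma called 2 of 8 plasma cell markers (Xbp1 and Tnfrsf17, both lower) as different between the classes. It also called 1 of 6 B cell markers (Cd79b, higher), 1 of 5 myeloid (Itgam, lower) and 1 of 4 fibroblast markers (Lum, higher). No T cell or erythroid marker was called, and 4.82% of all 18193 genes were. The log2 of the summed myeloid marker intensity was 8.85 and 8.83 on the low switching arrays and 8.25 and 8.32 on the high switching arrays. Of the 5 myeloid markers Itgam alone was lower (-1.38), while the other 4, none of them called, had differences of 0.12 to 0.28, and Cd14 and Fcgr3 lay below the median probe set on every array. The part of these markers in the light chain values was not tested.

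Lambda transcripts differed most. The probe set 1424931_s_at, annotated to the lambda constant gene Iglc1 and the variable gene Iglv1, had log2 values of 13.33 and 12.99 in low switching replicates 1 and 2 and of 9.35 and 9.70 in high switching replicates 1 and 2. On the linear scale these are intensities of 10263, 8109, 654 and 831. Both high switching subclones were far below both low switching subclones, with a gap much wider than the spread within either pair. The class means were 13.16 ± 0.24 (SD, n = 2) and 9.53 ± 0.24, a log2 difference of -3.63 ± 0.17 (SE, 95% interval -4.05 to -3.21), or 12.4-fold lower in high switching subclones, with a limma adjusted p of 0.000722.

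A second probe set, 1427292_at, annotated to Iglv1 alone, gave nearly the same size of difference. Its values were 11.76 and 11.30 in the low switching and 7.80 and 8.06 in the high switching subclones, without overlap. The difference was -3.60 ± 0.18 (SE, 95% interval -4.05 to -3.16), 12.1-fold lower, with a limma adjusted p of 0.000977. Of all 45037 probe sets, 21 had a more negative difference than 1424931_s_at. On the high switching arrays both probe sets still lay above the median probe set. In bulk RNA of a culture, fewer cells with a lambda transcript and less lambda RNA in each cell cannot be told apart.

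**Figure D1:**
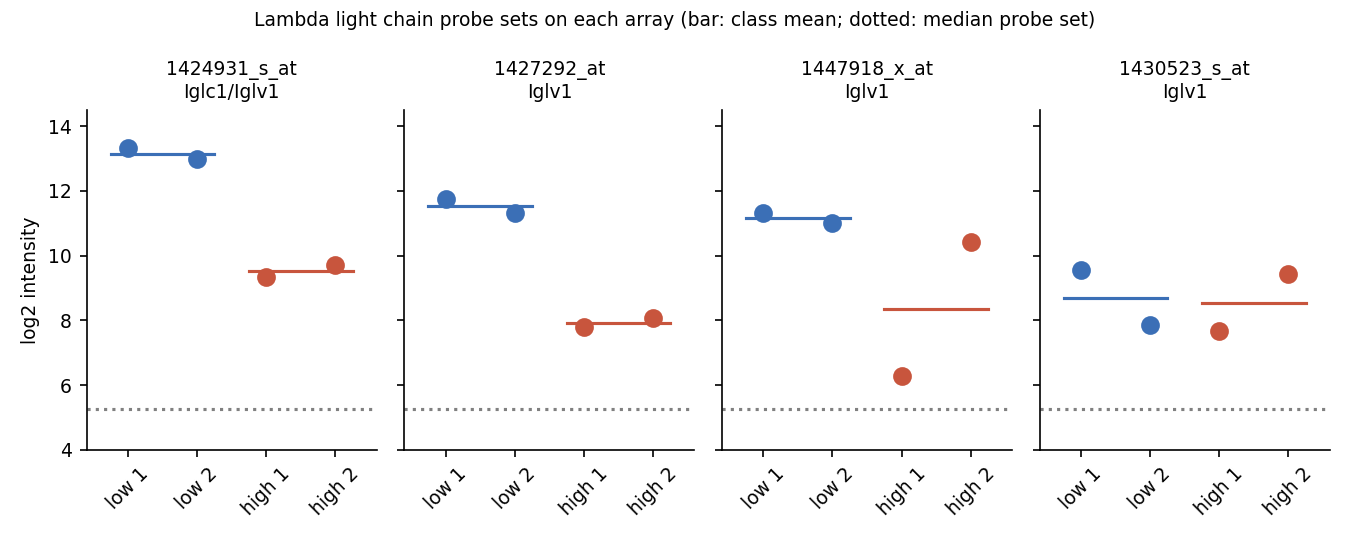
Log2 intensity (vertical axis) of each lambda probe set on each of the 4 arrays (points; blue low switching, red high switching), with the mean of each class as a bar and the median probe set as a dotted line. Both probe sets on the left are about 12-fold lower on both high switching arrays, 1447918_x_at is low on high switching replicate 1 only, and 1430523_s_at is bright on 1 array of each class.

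The remaining Iglv1 probe sets did not follow this pattern. The probe set 1447918_x_at had values of 11.33 and 10.99 in the low switching subclones, 6.27 in high switching replicate 1 and 10.41 in high switching replicate 2. Here the fall lay in high switching replicate 1, and replicate 2 was close to the low switching subclones. The high switching subclones differed 17.6-fold from each other on this probe set, and only 1 of 45037 probe sets differed by more between them. The class difference of -2.82 ± 1.19 (SE, 95% interval -5.73 to 0.09) did not pass (limma adjusted p = 0.284). It passed with a value of -4.89 when high switching replicate 2 was left out (limma adjusted p = 0.00137), and shrank to -0.75 when high switching replicate 1 was left out (limma adjusted p = 0.142).

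The fourth lambda probe set, 1430523_s_at, is also annotated to Iglv1. It had values of 9.55 and 7.85 in low switching replicates 1 and 2 and of 7.67 and 9.43 in high switching replicates 1 and 2. One array of each class was thus bright and 1 was dim, and the classes overlapped. The class difference was -0.15 ± 0.71 (SE, 95% interval -1.88 to 1.58, limma adjusted p = 0.958). It was 0.70 without low switching replicate 1, -0.9997 without low switching replicate 2, 0.73 without high switching replicate 1 and -1.03 without high switching replicate 2, so it has no settled direction. Its subclones differed 3.24-fold in the low switching pair, where 23 of all probe sets differed by more, and 3.41-fold in the high switching pair, where 11 did.

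The pair of arrays that were bright on 1430523_s_at were also those with brighter hybridization controls, bacterial and phage transcripts added to every sample. These controls had mean log2 values of 11.32 on low switching replicate 1 and 11.23 on high switching replicate 2, against 10.72 and 10.79 on the other arrays. A separate set, the poly-A controls, split the arrays in the same way (7.66 and 7.67 against 7.34 and 7.33). The mean of the arrays with bright controls minus that of the arrays with dim controls was 1.73 for 1430523_s_at, 2.24 for 1447918_x_at, 0.34 for 1424931_s_at and 0.36 for 1427292_at. Every lambda probe set was therefore brighter on the arrays with brighter controls, in 2 of the 4 by at least 2-fold, as were 0 of 24 kappa probe sets (0.0955% of all probe sets differed 2-fold between these arrays in either direction). Each class holds 1 array of either kind, so the control level as a block in the fit leaves every class difference as it is and changes only its error. With that block 1424931_s_at and 1427292_at passed (limma adjusted p = 0.0118 and 0.0143), and 1447918_x_at (0.275) and 1430523_s_at (0.524) did not. The part of the control level in the values of 1447918_x_at and 1430523_s_at was not tested further.

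Probe sets that list the kappa constant gene were bright and nearly level across the subclones. Igkc encodes the constant domain shared by every kappa chain, and 3 probe sets list it, each together with Igkj1 and several Igkv genes. Going by this annotation, their readings cannot be assigned to Igkc alone. The probe set 1427455_x_at read 15.09 and 15.10 in the low switching and 15.11 and 15.03 in the high switching subclones. Only 4 of 45037 probe sets had a higher mean, so this reading is close to the upper end of the scale, where a change can be compressed. Its difference was -0.02 ± 0.11 (SE), with a 95% interval of -0.28 to 0.23.

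The other Igkc probe sets are less bright and gave the same picture. Still, only 184 and 296 of 45037 probe sets had a higher mean than 1427660_x_at and 1452417_x_at, so a change may be compressed there too. On 1427660_x_at the values were 13.94 and 14.04 against 14.07 and 13.92 (difference 0.01, 95% interval -0.27 to 0.29), and on 1452417_x_at they were 13.30 and 13.50 against 13.54 and 13.41 (difference 0.08, 95% interval -0.22 to 0.38). On all 3 the classes overlapped, and the limma adjusted p-values lay between 0.825 and 0.992. The intervals leave room for a rise of up to 0.38 in high switching subclones and for a difference down to -0.28.

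Lambda and kappa thus differed by unequal amounts on the same arrays. After subtraction of the mean of the 2 less bright Igkc probe sets on each array, the class difference was -3.67 for 1424931_s_at, -3.64 for 1427292_at, -2.86 for 1447918_x_at and -0.19 for 1430523_s_at. No test is given of these values, since an exact permutation test of 2 arrays against 2 cannot go below p = 0.333. Levels of different probe sets are not compared, since each has its own response.

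**Figure D2:**
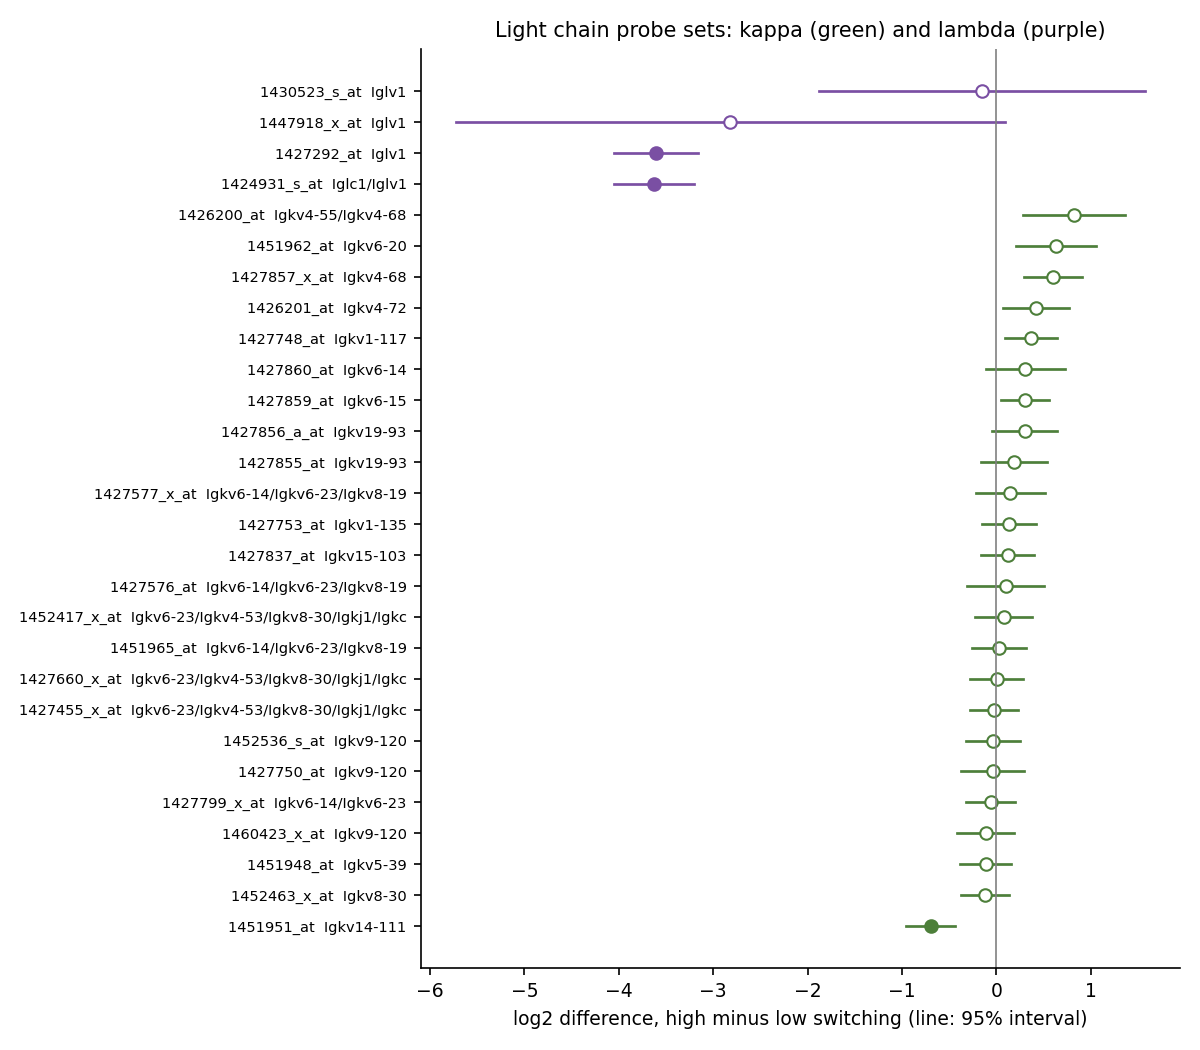
Log2 difference, high minus low switching (horizontal axis), of all 28 light chain probe sets with its 95% interval, kappa in green and lambda in purple; filled points passed the limma threshold. The 2 lambda probe sets that passed lie near -3.6, the kappa probe set that passed at -0.70, and the Igkc probe sets near 0.

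Over all light chain probe sets, 3 fell and 0 rose in high switching subclones by limma at an adjusted p under 0.05, where 2.1% of all probe sets tested fell and 1.5% rose. Of the lambda probe sets 2 of 4 fell, and the median difference of the 4 was -3.21. Of the kappa probe sets 1 of 24 fell, against 3.59% of all probe sets that passed in either direction, so the kappa share is near the background. The median kappa difference was 0.11 and that of all probe sets 0.01. The classes did not overlap on 12 of 24 kappa probe sets, 8 higher and 4 lower in high switching subclones, where this held for 47.3% of all probe sets, 25.1% higher and 22.2% lower. At an unadjusted p under 0.05 by limma stood 7 of 24 kappa probe sets, 6 of them with a positive difference and 1 (the one that passed) with a negative one, where 18.6% of all probe sets did, 8.96% higher and 9.67% lower.

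The kappa probe set that fell was 1451951_at, annotated to the variable gene Igkv14-111. Its values were 5.80 and 5.73 in the low switching subclones and 5.09 and 5.04 in the high switching subclones. The classes were apart, but the level crossed the median probe set, above it in the low and below it in the high switching class. The difference of -0.70 ± 0.11 (SE, limma adjusted p = 0.029) did not pass when any single array was left out (adjusted p = 0.0932 to 0.153), with the control level as a block (0.104) or with a minimum fold of 1.5.

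Among the brighter variable gene probe sets, 1452463_x_at (Igkv8-30) read 14.19 and 14.23 in the low switching and 14.12 and 14.07 in the high switching subclones. Its difference of -0.12 (95% interval -0.37 to 0.14) was small beside the lambda differences and did not pass (limma adjusted p = 0.643). The Igkc probe sets list Igkv8-30 too, so this reading may not come from Igkv8-30 alone. The probe sets 1427576_at and 1427577_x_at were designed from 1 sequence record and list Igkv6-14, Igkv6-23 and Igkv8-19. On 1427576_at the values were 8.61 and 9.04 against 8.84 and 9.01, and on 1427577_x_at they were 8.49 and 8.87 against 8.80 and 8.85. In both, low switching replicate 1 was the dimmest array and the other 3 were alike. Their class differences were 0.10 (95% interval -0.31 to 0.51) and 0.15 (95% interval -0.22 to 0.51).

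Probe sets that list Igkv4 genes alone had higher values in the high switching subclones, without passing the threshold. The Igkc probe sets, which also list Igkv4-53, did not show this, with differences of -0.02, 0.01 and 0.08. The probe set 1426200_at, which lists Igkv4-55 and Igkv4-68, read 7.20 and 7.22 in the low switching subclones, 8.37 in high switching replicate 1 and 7.69 in replicate 2. The low switching subclones were alike and both high switching subclones lay above them, replicate 1 by more. The difference was 0.82 ± 0.22 (SE, 95% interval 0.29 to 1.36, limma adjusted p = 0.113), 1.77-fold. It passed without high switching replicate 2 (1.16, limma adjusted p = 0.0317) and in no other setting tried, and it was 0.48 without high switching replicate 1 (limma adjusted p = 0.183).

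The other probe sets that list Igkv4 genes alone are singled out here after their values were seen. The probe set 1427857_x_at (Igkv4-68) read 6.30 and 6.29 against 7.02 and 6.77, a difference of 0.60 ± 0.12 (limma adjusted p = 0.0611) that passed only when probe sets with a mean under 6 were left out (0.0461). The probe set 1426201_at (Igkv4-72) read 4.78 and 4.54 against 5.21 and 4.97, a difference of 0.42 ± 0.14 (limma adjusted p = 0.185), all below the median probe set. Of the 3 probe sets that list Igkv4 genes alone, 2 list Igkv4-68, so they are not independent readings. The sequence record behind 1427857_x_at is also that of both Igkv19-93 probe sets, which leaves the V gene it reads uncertain.

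**Figure D3:**
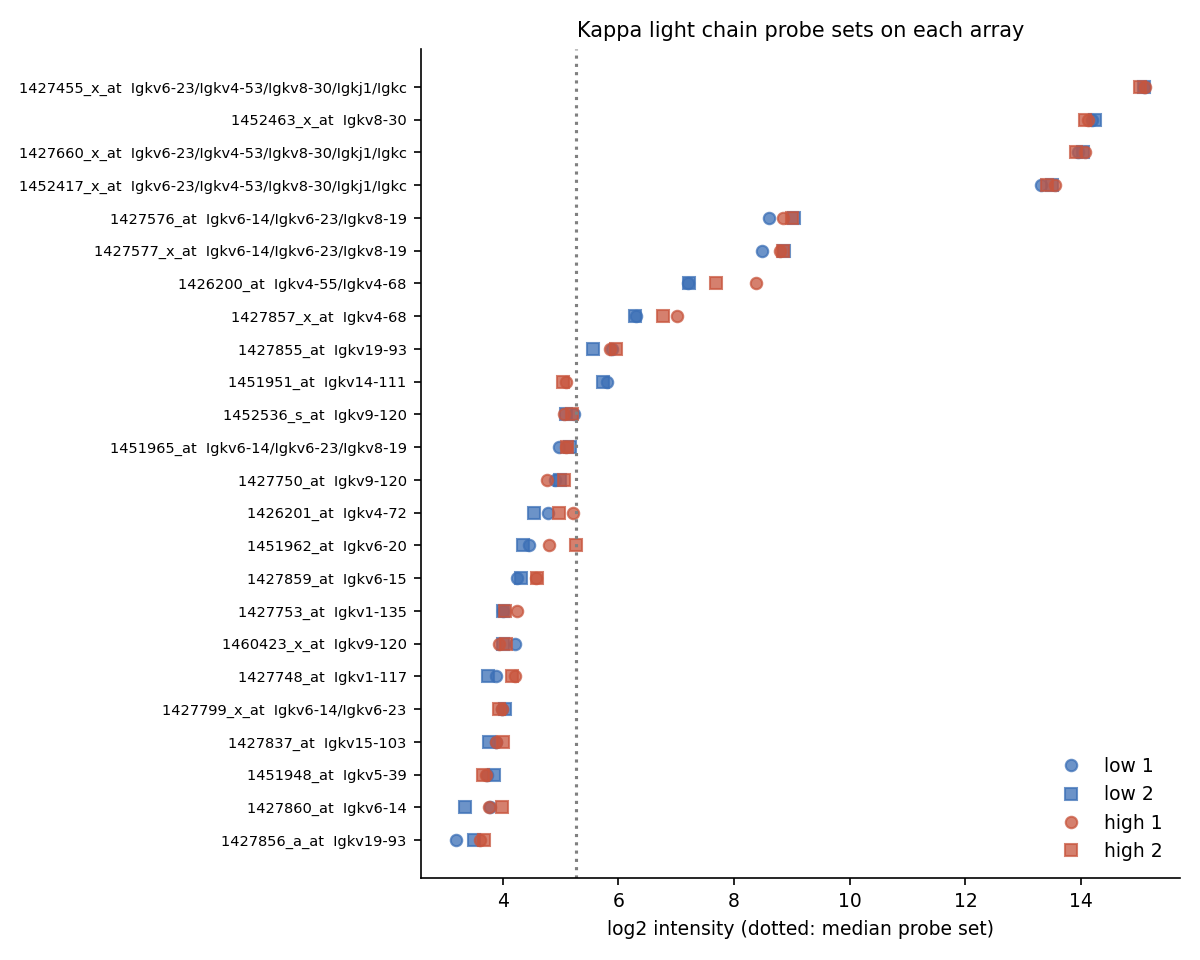
Log2 intensity (horizontal axis) of each kappa probe set on the 4 arrays, ordered by mean level; blue marks low and red high switching subclones, circles replicate 1 and squares replicate 2, and the dotted line is the median probe set. The 4 brightest probe sets lie between 13.3 and 15.11 with the classes nearly on top of each other, and 14 of 24 lie below the median probe set on all arrays.

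Most kappa variable gene probe sets were dim. Of the 24 kappa probe sets, 14 lay below the median probe set on all 4 arrays, 9 above it on all 4, and Igkv14-111 crossed it. Of all 45037 probe sets, 23677 had a positive difference. Among the 16 outside the rule for naming (constant or joining genes, a class mean of at least 7, or a call) 11 were positive and 5 negative. Their limma adjusted p-values ran from 0.0611 to 0.944 and their differences from -0.11 to 0.63. The largest was that of 1451962_at (Igkv6-20, named after its value was seen), which read 4.45 and 4.34 against 4.79 and 5.26, a difference of 0.63 ± 0.17 (limma adjusted p = 0.12). Leaving out high switching replicate 2 gave 0.39, leaving out replicate 1 of that class gave 0.87, and adding 16 before log2 gave 0.39. At these levels the array gives no firm order, and a small difference in amount may not be seen.

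The remaining kappa probe sets are given by V gene family, none of them passed, and differences between families were not tested. Both Igkv1 probe sets (1427748_at for Igkv1-117 and 1427753_at for Igkv1-135) and both Igkv19-93 probe sets had positive differences, from 0.14 to 0.37 and from 0.19 to 0.30. All 3 Igkv9-120 probe sets had negative ones, between -0.11 and -0.03, with overlapping classes. Of the 4 probe sets that list Igkv6 genes alone, 3 were positive. Members share targets: 9 of the 28 come from 4 sequence records between them, so these counts are of probe sets and not of separate genes.

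No kappa probe set differed 2-fold between the subclones of a class, which few probe sets of the array did. Between the low switching subclones 0 of 24 kappa probe sets and 1 of 4 lambda probe sets differed 2-fold, where 0.295% of all probe sets did. Between the high switching subclones it was 0 of 24 kappa and 2 of 4 lambda probe sets, where 0.242% of all did. The kappa difference of largest size within a class was the 1.60-fold of 1426200_at in the high switching pair. The lambda probe sets that differed were 1430523_s_at in both pairs and 1447918_x_at in the high switching pair, while 1424931_s_at and 1427292_at differed 1.19-fold to 1.37-fold within either pair. With 1 array for each subclone these differences have no test.

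**Figure D4:**
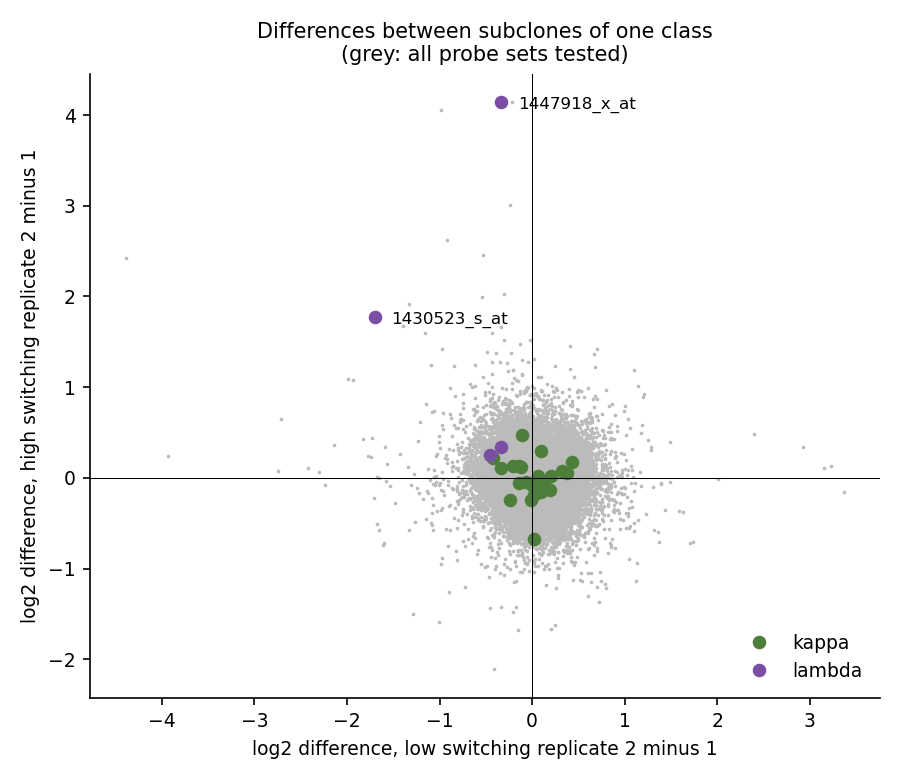
Log2 difference between the subclones of a class, replicate 2 minus replicate 1, in the low switching pair (horizontal axis) and the high switching pair (vertical axis), for kappa (green), lambda (purple) and all 45037 probe sets (grey). The lambda probe sets 1447918_x_at (4.14 in the high switching pair) and 1430523_s_at (-1.70 and 1.77) stand far from the others.

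Genes that serve light chain production differed little as a list. Of 36 measured genes that rearrange, transcribe, pair or secrete light chains, 1 rose and 1 fell, where 2.04% of 18193 genes rose and 2.78% fell (4.82% in either direction), and their median difference was 0.00 against 0.01 for all genes. Calr (calreticulin, a chaperone of the endoplasmic reticulum, with 2 of 3 probe sets called) read 11.53 and 11.62 in the low switching and 12.28 and 12.12 in the high switching subclones and rose by 0.62 (limma adjusted p = 0.0469). Tcf12 (an E protein that can bind light chain enhancers, with 2 of 5 probe sets called) read 11.92 and 11.84 against 11.04 and 11.30 and fell by 0.71 on the log2 scale (limma adjusted p = 0.0454). Neither call held when any single array was left out.

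Irf4 and Pou2af1, the transcription factors fixed by name, had differences near 0, while others of the list did not. Irf4, which binds the kappa and lambda enhancers, had a difference of 0.03 (95% interval -0.31 to 0.38), and Pou2af1, the coactivator OCA-B of immunoglobulin promoters, one of -0.06 (95% interval -0.31 to 0.20). Over 18 measured transcription factors the differences ran from -0.71 to 0.62 with a median of -0.03. Furthest from 0 lay Tcf12 (-0.71), Tcf3 (-0.54) and Relb (-0.42) below it, and Ikzf3 (0.53) and Ebf1 (0.62) above it. Only Tcf12 among them was called. Jchain had a difference of 0.04 (95% interval -0.24 to 0.31), and Hspa5, the chaperone BiP that holds unpaired chains in the endoplasmic reticulum, one of 0.00 (95% interval -0.25 to 0.25).

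No measured gene listed around the surrogate light chain, which stands in for a light chain in pre-B cells, was called. Vpreb2 was not measured. Igll1 (lambda 5) had means of 6.18 and 6.31 in low and high switching subclones, Vpreb1 of 4.14 and 3.93, and Vpreb3 of 7.81 and 7.48. Their limma adjusted p-values were 0.653, 0.435 and 0.405. Vpreb1 lay below the median probe set on every array, as did the recombinase genes Rag1 and Rag2, so the Rag1 and Rag2 differences of 0.08 and 0.01 say little.

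**Figure D5:**
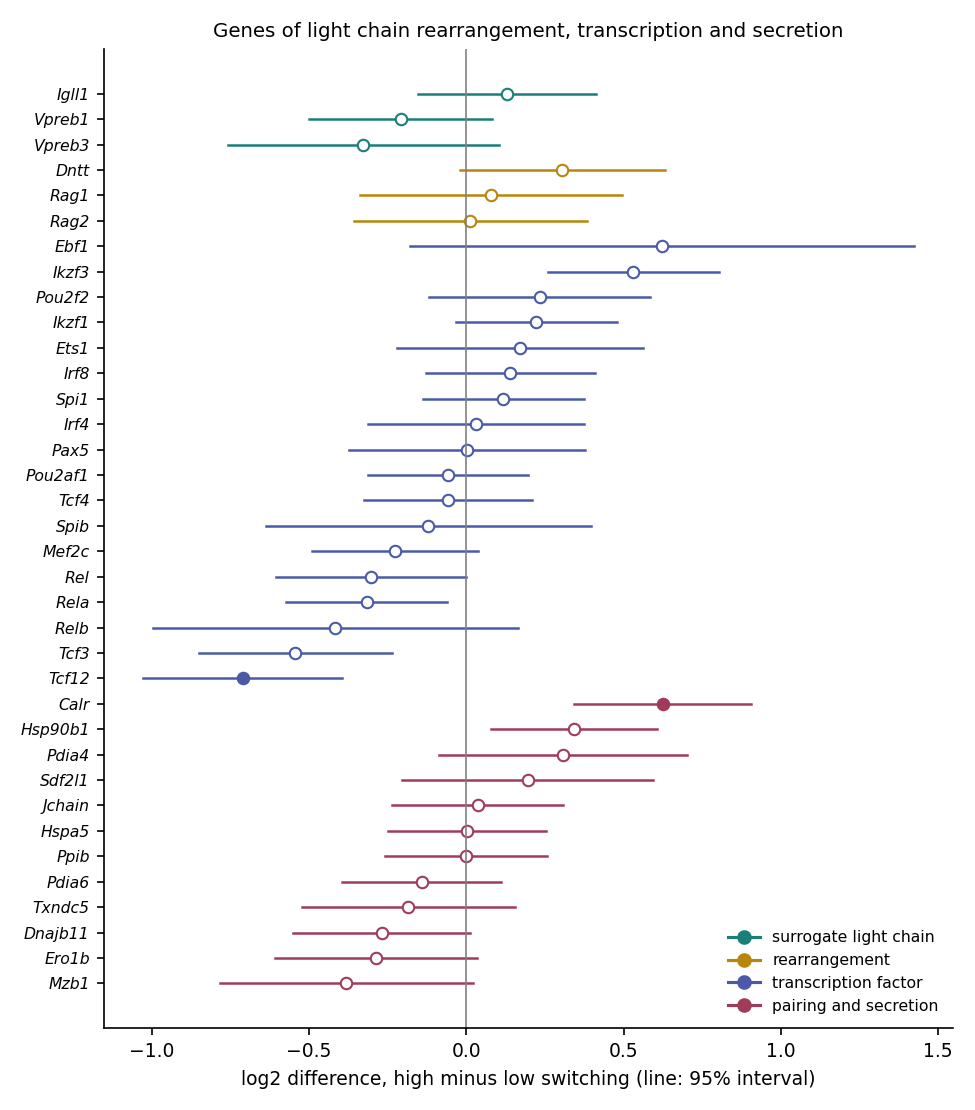
Log2 difference, high minus low switching, with its 95% interval for 36 genes of light chain rearrangement, transcription, pairing and secretion, coloured by role; filled points passed the limma threshold. Calr (0.62) and Tcf12 (-0.71) passed, and Irf4, Pou2af1, Jchain and Hspa5 lie near 0.

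The genes beside both loci were called about as often as all genes. Of the 10 nearest measured genes on each side of the lambda locus, limma called 0 of 20, where 4.82% of all genes were called, and 5 had an unadjusted p under 0.05, where 22.9% of all genes did. Their differences ran from -0.91 to 0.66 with a median of -0.01. Beside the kappa locus 1 of 20 passed and 5 had an unadjusted p under 0.05. The gene that passed was Gadd45a, a gene induced by DNA damage and stress, which rose by 1.18 (8.45 to 9.62, limma adjusted p = 0.0115), and the median was 0.14. Likeness in pattern over the 4 arrays was measured by root mean square distance of centred log2 values. It was taken among 13892 probe sets with 1 symbol, no light chain, and a mean of at least 7 in the brighter class. Nearest to 1424931_s_at were probe sets of Pogk (0.13), Zfp982 (0.13), Bank1 (0.20), Nxf3 (0.28) and Slc25a24 (0.30). None of these is on chromosome 16, and all were lower in high switching subclones because they were picked for that pattern. The one nearest to 1426200_at was of Ano6 (0.03), with values of 6.39 and 6.48 against 7.60 and 6.92. With 4 arrays, such likeness is a description only.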

How the data were processed

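Total RNA of 4 subclones was converted to biotinylated RNA for Affymetrix GeneChip arrays, 1 for each, per the labels. The authors deposited linear intensities made with RMA (robust multi-array average, version not given in the sources used here), according to the submitters' processing notes. A genome build is likewise not given in the sources used here. Summaries of this kind compress changes at low intensity, so folds of dim probe sets can be too small. Of 45101 probe sets in the file, 64 are controls, which were set aside.

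Intensities were taken to log2 with no filter. A two-sided limma fit (version 3.58.1, R 4.3.3, lmFit with eBayes) over the remaining 45037 gave high minus low switching with moderated SEs and 95% intervals, and a probe set was called at a Benjamini-Hochberg adjusted p under 0.05. Light chain probe sets were read from that fit. Symbols come from a platform annotation of 2016, updated by gene ID through a table of assembly GRCm38.p6, which also gave chromosomes and the order of genes (34741 of 34945 probe sets with 1 symbol matched). In gene lists and among neighbours each of 18193 genes was read from its brightest probe set. Of these steps only the limma fit was tested on simulated data with added changes. The members, lists, tests and the rule for naming (every lambda, Igkc and Igkj probe set, Igkv probe sets with a class mean of at least 7, every call, and companion genes that passed or were fixed by name) were chosen with earlier results of these data known. Alternatives were other variance models, filters, normalizations, an offset of 16 before log2, a minimum fold of 1.5, probe sets with 1 symbol, the hybridization control level as a block, and leaving out each array. Plots were made in Python 3.11.15 (matplotlib 3.10.9).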

Additional observations from a re-analysis of the deposited data

How the results depend on the processing

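The calls of 1424931_s_at and 1427292_at held in every setting in which they were tested, and their differences ran from -3.80 to -3.46 and from -3.83 to -3.37 when 1 array was left out. The count of light chain probe sets called (3) was 2 or 3 in the other settings and 2 to 4 when 1 array was left out. The count over all probe sets (1618) was 163 with a minimum fold of 1.5, 152 with the hybridization control level as a block, and 308 to 582 when 1 array was left out. The count of companion genes (2) was 1 with 16 added before log2. It was 0 without probe sets named _x_at, _s_at or _a_at, with a minimum fold and with the block. At an unadjusted p under 0.05 by limma stood 7 of 36 companion genes in the main fit, where 22.9% of all genes did. Without the probe sets so named it was 3 of 32, with the minimum fold 0 of 36 and with the block 9 of 36. The share of all genes at that level was taken for the main fit only. The median kappa difference (0.11) was 0.075 with 16 added before log2, 0.16 without probe sets named _x_at, _s_at or _a_at, 0.16 with 1 gene symbol only, and 0.017 to 0.14 when 1 array was left out. The median lambda difference ran from -3.77 to -2.10 when 1 array was left out.

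Small differences changed sign: 1427660_x_at was -0.015 with quantile normalization applied again. When 1 array was left out, 1427455_x_at ran from -0.066 to 0.017, 1427660_x_at from -0.068 to 0.083, 1452417_x_at from -0.017 to 0.17, 1427576_at from -0.12 to 0.32, 1427577_x_at from -0.041 to 0.34 and 1430523_s_at from -1.03 to 0.73. The counts of light chain probe sets that differ 2-fold within a class were the same with repeated quantile normalization, cyclic loess and the offset, settings chosen after seeing the data. With the brightest Igkc probe set included, the lambda differences relative to Igkc were -3.65, -3.62, -2.84 and -0.17. No paired analysis was possible because the labels give only subclone numbers, of which 1 occurs in both classes. Leaving out an array leaves 1 subclone in a class, which is then assumed to vary like the others. The cause of these changes was not tested. Precision is limited by 2 arrays for each class, and dim probe sets by their level near the median probe set.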
